A study of Mus musculus with 2 samples.

Results

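Malat1, Neat1, Meg3, Rian, Mirg, Kcnq1ot1, H19 and Pvt1 are genes of long noncoding RNAs that stay mostly or partly in the nucleus. They were measured in wild-type mouse embryonic stem cells, the DTCM23/49 XY line depleted of feeder cells and kept in serum with leukemia inhibitory factor. The cells received 200 µM 4-thiouridine (4sU), a uridine analogue that is built into RNA while it is made, for 10 min. RNA that carried 4sU (labeled, newly made) was pulled out through biotin, and the RNA left in the supernatant (unlabeled, preexisting) was kept as the other pool. Each pool was sequenced as 1 library from replicate 1, so no difference below has a replicate check and no test was made. The members are all transcripts of any biotype that GENCODE M21 assigns to the 8 symbols. They come to 69 transcripts, of which 65 are among the 121429 exon rows of the table, and 58 of these also have an intron row.

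Each value is a relative abundance per length, named TPM by the study, but a library adds up to 10 times what TPM would. Read depth is unknown, so no counting error can be given. A gene value is the sum of the exon values of its transcripts. Introns took 15.4% of the labeled and 6.26% of the unlabeled library. All 10 stem cell markers examined were present, with unlabeled values from 72.9 for Zfp42 to 10031 for Tdgf1. The summed unlabeled value of 8 fibroblast markers was 59.4, with Acta2 at 38.6, Thy1 at 14.45, Dcn at 4.62 and Col1a1 at 1.78. Col3a1, Postn and Lum were listed at 0 in both libraries. Of 8 markers of early differentiated cells, Gata6, Sox17 and Afp were listed at 0. Pax6 stood at 137.8 in labeled and 151.4 in unlabeled RNA, Nes at 15.7 and 26.3, and Gata4 at 4.87 and 5.88. The part of fibroblasts or differentiated cells in the values below was not tested. In a bulk sample, RNA from fewer cells and less RNA per cell cannot be told apart.

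Nuclear noncoding RNAs act where they are made or gather in nuclear bodies. Malat1 collects in nuclear speckles, bodies rich in splicing factors, and is among the most abundant and stable long noncoding RNAs of mammalian cells. Neat1 is the scaffold of paraspeckles. Its long isoform is needed to build them, and its short isoform shares the 5′ end of the long one. Meg3, Rian and Mirg are made in the same direction from the maternal chromosome in the imprinted Dlk1-Dio3 domain, and their introns and exons hold many small nucleolar RNAs and microRNAs. Kcnq1ot1 is an unspliced antisense RNA of the paternal chromosome that silences neighbouring genes, H19 is a maternally expressed spliced RNA, and Pvt1 lies next to Myc.

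The long isoforms of Malat1 and Neat1 are not protected by a poly(A) tail. Their 3′ ends hold U-rich tracts and an A-rich tract that are known to fold into a triple helix, and the end is set by cleavage before a tRNA-like structure. These stretches are shown because the annotated ends of both genes differ around them. The capitals mark every match to TTTTTCTTTT, TTTTGCTTTT and AAAAGCAAAA on the RNA strand, in transcript sequence of GENCODE M21 on GRCm38.
Malat1-201, chr19:5795962-5796067, minus strand: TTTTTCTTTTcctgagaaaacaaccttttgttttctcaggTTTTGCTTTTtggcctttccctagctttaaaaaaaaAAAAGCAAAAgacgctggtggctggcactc
Neat1-201, chr19:5824708-5824800, minus strand: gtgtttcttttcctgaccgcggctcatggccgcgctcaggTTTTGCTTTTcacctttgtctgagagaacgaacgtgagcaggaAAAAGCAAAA
In Neat1-201 the A-rich tract is the last base run of the annotated transcript, with 0 bases after it. In Malat1-201 another 292 bases follow the tract, so that the annotated model runs past it. Only the sense strand was searched. Among 94655 transcripts of the table with at least 400 bases, the last 400 bases held TTTTTCTTTT in 1.15%, TTTTGCTTTT in 0.298% and AAAAGCAAAA in 0.302%. The last 2 motifs occurred together in 3 transcripts. The window was set so that it holds both genes.

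Across the 8 genes, newly made RNA was not uniformly enriched. Neat1, Meg3, Mirg and Pvt1 were at least 2 times higher in labeled RNA, Rian and H19 were at least 2 times lower, and Malat1 and Kcnq1ot1 lay between. The background was 28.9% of 22757 genes at least 2 times higher and 17.5% at least 2 times lower. Among the 758 lincRNA genes that passed the same filter, 59.9% were at least 2 times higher and 9.76% at least 2 times lower. The median labeled to unlabeled ratio was 2.14 over the 8 genes, 2.55 over lincRNA genes, 1.07 over all genes and 0.891 over protein-coding genes. The 4 of 8 genes that were higher are thus above the share of all genes. As genes, Rian is annotated as a processed transcript and Kcnq1ot1 as antisense. The others, which include all 4 that were higher, are lincRNA genes. The 4 of 8 is therefore not a like comparison with the lincRNA share. When each library was rescaled over exon rows alone, all log2 ratios rose by 0.15. Kcnq1ot1 then passed the 2-fold line and H19 no longer did, so that 5 genes were higher and 1 was lower, in place of 4 and 2.

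**Figure D1:**
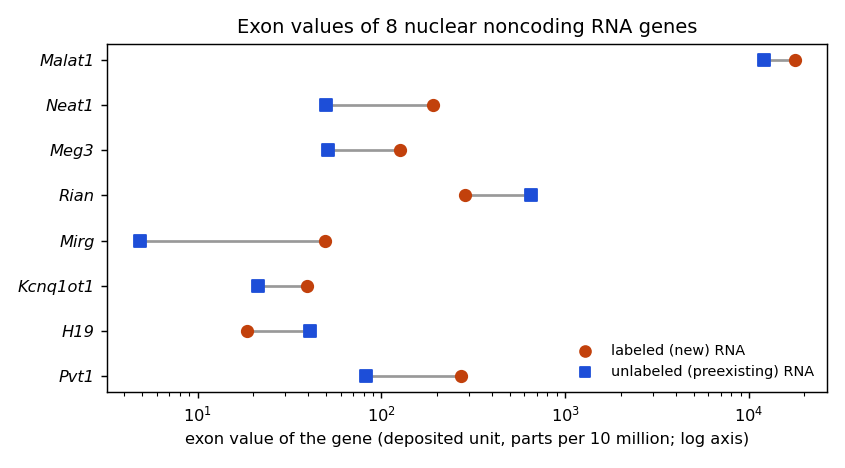
Exon value of each gene (log axis, deposited unit) in labeled RNA (circles) and unlabeled RNA (squares), 1 library each. The order of the symbols turns for Rian (287 against 652) and H19 (18.6 against 40.7), whose unlabeled value is the higher one.

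Malat1 (ENSMUSG00000092341, chr19:5795690-5802672, minus strand) had the highest level of the 8 genes. Its summed exon value was 17731 in labeled and 12025 in unlabeled RNA, a ratio of 1.47, and it ranked 42 of 22757 genes by the mean of both libraries. The value was 92.9 times that of Neat1 in labeled and 241.3 times in unlabeled RNA. All 4 of its transcripts were higher in labeled RNA. Malat1-201, an unspliced RNA of 6983 bases, had 6823 in labeled and 4687 in unlabeled RNA. Malat1-203, a spliced model of 485 exon bases at the 5′ end, had 6614 and 3592. Malat1-202 and Malat1-204, which share the last exon, had 3045 and 2649, and 1249 and 1097. The labeled to unlabeled ratio was thus 1.84 for the model at the 5′ end and 1.15 and 1.14 for the spliced models at the 3′ end.

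The spliced Malat1 models overlap Malat1-201 at every base, also within their introns. For each of the 3 spliced transcripts, 100% of the intron bases lie in the exon of Malat1-201, so an intron row and an exon row of this gene can draw on the same RNA. The rows differed widely in level. The intron of Malat1-203, 271 bases long, had 41345 in labeled and 25055 in unlabeled RNA, which was 6.06 times and 5.35 times the value of Malat1-201, which is a mean over its whole length. The 1218-base intron of Malat1-202 had 1076 and 768.3, and the 603-base intron of Malat1-204 had 778.9 and 295.6. These were 0.158 and 0.164 times, and 0.114 and 0.0631 times, the value of Malat1-201.

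The intron of Malat1-203 is printed whole because it carries the highest value of any member row. Capitals mark intron bases and lower case the 10 exon bases on each side.
Malat1-203 intron, chr19:5801957-5802247, minus strand: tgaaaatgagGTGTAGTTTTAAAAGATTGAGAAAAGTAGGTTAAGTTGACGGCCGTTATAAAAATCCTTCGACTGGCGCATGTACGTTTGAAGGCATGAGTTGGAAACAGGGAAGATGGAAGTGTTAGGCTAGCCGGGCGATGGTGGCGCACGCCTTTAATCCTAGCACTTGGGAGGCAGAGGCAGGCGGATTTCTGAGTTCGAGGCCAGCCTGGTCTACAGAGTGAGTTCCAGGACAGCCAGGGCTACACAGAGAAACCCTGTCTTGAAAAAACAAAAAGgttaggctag
Intron bases 121 to 271 hold a B1 element, a short repeat with very many copies in the mouse genome. Exact stretches of 25 bases from them, on either strand, occurred in transcripts of 2325 other genes of the table. The introns of Malat1-202 and Malat1-204 and the exons of Malat1-203 shared no stretch of that length with another gene. Gm37376, an unspliced model of 453 bases on the opposite strand (chr19:5801941-5802393) that covers the same intron, had 33859 in labeled and 20814 in unlabeled RNA. Gm27694, an 86-base model inside Malat1 on the same strand, had 5981 and 5562. Whether the libraries kept strand is not given in the sources used here, so reads of Malat1 and Gm37376 cannot be told apart, and the part of repeat reads in these rows was not tested.

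The introns at the 3′ end start at different sites and share the end site. Capitals again mark intron bases, with 20 bases on each side of the junction.
Malat1-202 intron start, chr19:5796984-5797023, minus strand: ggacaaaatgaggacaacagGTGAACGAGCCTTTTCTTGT
Malat1-204 intron start, chr19:5796369-5796408, minus strand: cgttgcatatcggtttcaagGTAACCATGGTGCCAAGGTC
Shared intron end, chr19:5795766-5795805, minus strand: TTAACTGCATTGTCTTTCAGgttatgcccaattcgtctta
Each intron begins with GT and ends with AG. Both introns contain the triple helix tracts shown above, and the shared last exon lies past them.

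**Figure D2:**
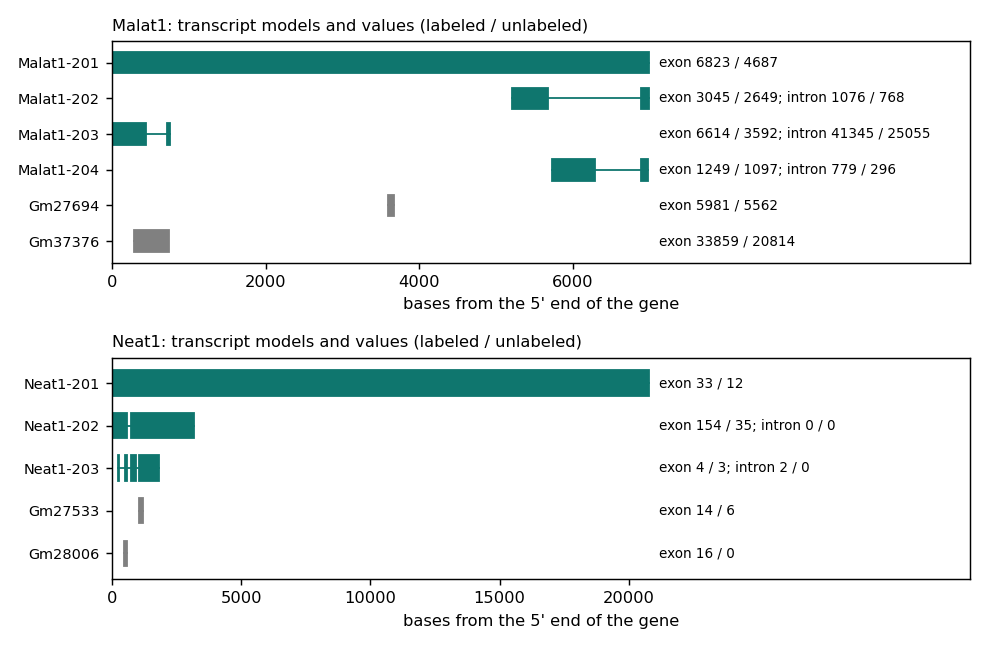
Transcript models of Malat1 and Neat1 in bases from the 5′ end of each gene, with boxes for exons, lines for introns and grey boxes for other genes, and the labeled / unlabeled value of each row in the deposited unit at the right. The Malat1-203 intron (41345 / 25055) and Gm37376 (33859 / 20814) occupy the same bases at the 5′ end.

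Neat1 (ENSMUSG00000092274, chr19:5824708-5845478, minus strand) was far less abundant and more enriched in newly made RNA. Its summed exon value was 191 in labeled and 49.8 in unlabeled RNA, a ratio of 3.83. The short spliced model Neat1-202, of 3004 exon bases, had 153.7 and 35.3, a ratio of 4.35. The long unspliced RNA Neat1-201, of 20771 bases, had 33.3 and 11.8, a ratio of 2.82. The short model was therefore 4.62 times the long one in labeled and 3.0 times in unlabeled RNA. Neat1-203, the remaining transcript in the table, had 3.9 and 2.76. As in Malat1, the intron of the short model lies within the long RNA.
Neat1-202 intron, chr19:5844749-5844934, minus strand: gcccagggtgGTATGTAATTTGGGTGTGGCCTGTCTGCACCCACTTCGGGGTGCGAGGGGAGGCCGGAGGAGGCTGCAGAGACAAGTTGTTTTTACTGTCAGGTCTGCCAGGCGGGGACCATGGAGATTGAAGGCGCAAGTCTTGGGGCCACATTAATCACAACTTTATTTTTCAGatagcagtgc
This intron of 166 bases is shown because its row was listed at 0 in both libraries, although Neat1-201, which covers it, was not. It shared no stretch of 25 bases with another gene. The 0 is thus a value of the row and does not say that no RNA covered these bases.

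By level alone, the genes most like Malat1 among 7676 genes with a mean exon value of at least 100 were Rpl6 (17241 labeled, 11737 unlabeled), a protein of the large ribosomal subunit, Hnrnpa3 (16468 and 12118), an RNA-binding protein, and Eif4a2 (17172 and 14418), an RNA helicase of translation initiation. The distances in log2 over the 2 libraries were 0.054, 0.11 and 0.27. Those most like Neat1 were Ndufaf6 (193.6 and 47.5), an assembly factor of respiratory complex I, the lincRNA Gm26836 (197.2 and 47.5) and Gm43108 (204.5 and 49.1), at distances of 0.074, 0.085 and 0.10.

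The mRNAs of proteins that reside in the corresponding bodies were read in the same way. Of 10 paraspeckle protein genes, 0 were at least 2 times higher in labeled RNA and 4 were at least 2 times lower, beside 17.5% of all genes, with a median ratio of 0.688 and a range from 0.356 to 1.55. Nono and Sfpq, the core paraspeckle proteins that bind Neat1, had 1595 and 3891, and 1784 and 4158, in labeled and unlabeled RNA. Of 10 nuclear speckle protein genes, 0 were at least 2 times higher and 2 were at least 2 times lower, close to the share of all genes, with a median of 0.643 and a range from 0.341 to 1.14. The median of all protein-coding genes was 0.891. The lower ones were Srrm1 (3133 and 9184) and Srsf2 (11927 and 26723), both proteins of splicing. The protein-coding neighbours of Malat1 and Neat1 were weakly expressed, with unlabeled values from 0.26 to 14.4. Of the 4 that passed the filter 1 was at least 2 times higher, Tigd3 with 5.32 and 1.05, near the 28.9% of all genes.

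The imprinted Dlk1-Dio3 domain on chromosome 12 held members with opposite patterns. Rian exons were depleted from new RNA while Meg3 and Mirg exons were enriched, and the introns of all 3 genes were mostly higher in new RNA. Their median intron ratios all lay below the median of 3.98 over all transcripts. Rian (ENSMUSG00000097451, chr12:109603940-109661716, plus strand), which hosts small nucleolar RNAs, had the highest exon value of the domain with 287 in labeled and 652 in unlabeled RNA, a ratio of 0.439. Of its 16 spliced transcripts 1 was higher in labeled RNA, Rian-208 with 29.2 and 24.4, and the others were lower. The most abundant spliced model, Rian-202, had 34.6 and 93.9, and Rian-213 had 29.2 and 71.9. Rian-204 had 19.7 and 48.5, Rian-207 had 15.8 and 50.9, Rian-211 had 15.9 and 59.1, and Rian-214 had 14.6 and 60.4. Rian-203, Rian-205 and Rian-215 had 16.5 to 18.8 in labeled and 30.5 to 43.9 in unlabeled RNA, and Rian-210 and Rian-217 had 5.67 and 5.85 in labeled and 25.3 and 25.8 in unlabeled RNA. The lowest ratio, 0.109, was that of Rian-212 with 3.67 and 33.7. The 3 single-exon transcripts were all higher in labeled RNA. Rian-209 had 18.6 and 4.10, and Rian-219 had 14.3 and 6.14. Rian-218, which was named after its values were seen, had 11.8 and 1.38. Summed, the spliced transcripts had 241.9 in labeled and 640.6 in unlabeled RNA, and the single-exon ones 44.7 and 11.6.

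All 16 intron rows of Rian were higher in labeled RNA, with ratios from 1.06 to 10.0 and a median of 3.22, beside a median of 3.98 over all transcripts. In each of the 16 transcripts the intron ratio exceeded the exon ratio, beside 89.3% of the 54122 transcripts that passed the same filter (exon and intron values above 0 in both libraries, mean exon value above 1). Weighted by length, intron rows made up 84.6% of the RNA assigned to the span of Rian in the labeled and 54.7% in the unlabeled library. By transcript, 0% to 100% of the intron bases of Rian are exonic in another of its transcripts, so these rows need not be intronic RNA alone. Over all bases of the span, exons and introns together, labeled RNA was 1.65 times unlabeled RNA, so the direction of the exon rows does not hold for the locus as a whole. This length-weighted sum was added after the data were seen, and no value over all genes is given for it.

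Meg3 (ENSMUSG00000021268, chr12:109541001-109571726, plus strand) had 127 in labeled and 51.3 in unlabeled RNA, a ratio of 2.47. Over all bases of its span the ratio was 1.79. Of its 11 spliced transcripts, 9 were higher and 1 was lower in labeled RNA. Meg3-208 had 30.7 and 7.08, and Meg3-211 had 29.8 and 8.72. Intron ratios ran from 0.942 to 2.15 with a median of 1.31. In 0 of the 8 Meg3 transcripts with all 4 values did the intron ratio exceed the exon ratio, the opposite of Rian. Gm26906, a lincRNA model of 1228 bases on the other strand that lies wholly in Meg3 exons, had 19.3 and 2.42.

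Mirg (ENSMUSG00000097391, chr12:109729764-109749460, plus strand), the host of a large group of microRNAs, had the highest ratio of the 8 genes at 10.1, with 49.3 in labeled and 4.87 in unlabeled RNA. This ratio was above that of 96.6% of all genes and 90.2% of lincRNA genes. All 12 transcripts were higher in labeled RNA, and 5 of them were listed at 0 in the unlabeled library. The most abundant one by the mean of both libraries, Mirg-201, had 6.73 and 2.96, a ratio of 2.27. The gene ratio thus rests on the other transcripts, each at or below 8.07 in labeled and 0.58 in unlabeled RNA. The introns did not show the same enrichment. Their ratios ran from 1.06 to 6.78 with a median of 1.55, and in 0 of 6 transcripts was the intron ratio above the exon ratio. Over all bases of the span the ratio was 1.95.

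**Figure D3:**
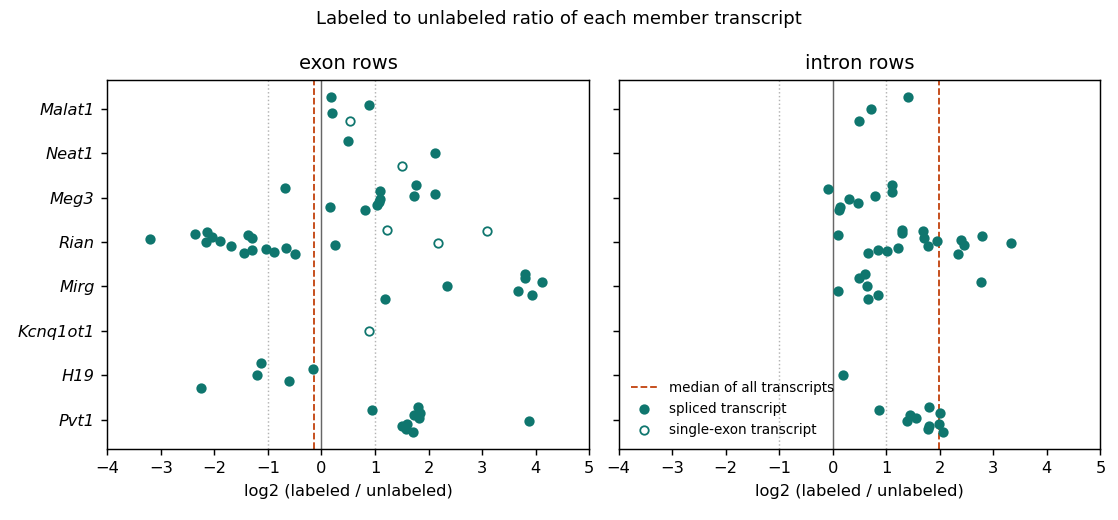
Log2 ratio of labeled to unlabeled value for each member transcript above 0 in both libraries, for exon rows (left) and intron rows (right), with filled circles for spliced and open circles for single-exon transcripts. Solid lines mark equal values, dotted lines a 2-fold difference and dashed lines the median of all transcripts, 0.905-fold for exon rows and 3.98-fold for intron rows, and 15 of the 16 spliced Rian transcripts lie left of 0 by exons while all 16 lie right of it by introns.

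The protein-coding genes of the domain were at low levels. The paternally expressed Dlk1, a membrane protein of the Notch ligand type, had 0.79 in labeled and 26.5 in unlabeled RNA. Rtl1, a retrotransposon-derived gene antisense to which microRNAs are made, had 5.23 and 0.93, Begain 2.08 and 0.47, and Dio3, a thyroid hormone deiodinase, 1.29 and 0.74. Of these 4 genes 2 were at least 2 times higher and 1 at least 2 times lower in labeled RNA, beside 28.9% and 17.5% of all genes.

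The small RNAs that these genes host were not seen as separate rows. The table has 15 microRNA hairpin rows within Mirg, 4 within Rian and 2 within Meg3, and 13 small nucleolar RNA rows within Rian, and all were listed at 0 in both libraries. The single hairpin row within H19 was also at 0. RefSeq (GRCm38.p6) places 37 mature microRNAs of 20 genes in the spans of H19, Meg3, Mirg and Rian, with 26 of them in Mirg. Of the 37, 13 lie within an annotated exon. Only the following pair, both in Mirg and neither wholly in an exon, shares a seed (bases 2 to 8, in capitals).
mmu-miR-453: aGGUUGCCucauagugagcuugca
mmu-miR-496a-5p: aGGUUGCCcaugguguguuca
For H19, both arms of its microRNA lie in an exon, so that the host exon and the hairpin are the same bases.
mmu-miR-675-5p: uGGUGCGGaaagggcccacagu
mmu-miR-675-3p: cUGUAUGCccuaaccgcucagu
An RNA-seq library of long RNA is not made to recover mature microRNAs, so these rows give no level for them.

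Kcnq1ot1 (ENSMUSG00000101609, chr7:143203458-143296549, minus strand) was measured as 1 unspliced transcript of 93092 bases. It had 39.6 in labeled and 21.4 in unlabeled RNA, a ratio of 1.85. Almost all of it, 99.9% of its bases, lies in introns of Kcnq1 on the other strand. The intron rows of Kcnq1-201 and Kcnq1-202 had 12 and 5.54, and 10.8 and 5.79, ratios of 2.16 and 1.87, while Kcnq1 exons summed to 0.25 and 0.80. Without known strand, the Kcnq1 intron rows and Kcnq1ot1 cannot be told apart. Exact stretches of 25 bases shared with 6249 other genes covered 10.5% of Kcnq1ot1. Within it, the 224-base model Gm27539 on the opposite strand, 2394 bases from the 5′ end, had 281.9 and 91.2.

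The genes around Kcnq1ot1 did not share a direction. Of 10 genes of the domain that passed the filter, 3 were at least 2 times higher and 3 at least 2 times lower in labeled RNA. The shares over all genes were 28.9% and 17.5%. The median ratio was 1.01, near the 1.07 of all genes. Cdkn1c, a cell cycle inhibitor and a known target of silencing by Kcnq1ot1, had 19.6 and 63.9, and Phlda2, an imprinted regulator of placental growth, had 58.6 and 67.8. The tetraspanin gene Cd81 had 448 and 1132. Tspan32 had 40.1 and 0.30, and Tssc4 29.8 and 5.03. Some of these calls rest on very low values, whose error cannot be given. They are Tspan32 and Trpm5 (2.02 and 0.28) among the higher genes and Osbpl5 (0.19 and 2.86) among the lower ones.

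H19 (ENSMUSG00000000031, chr7:142575529-142578143, minus strand) was low in these cells and lower in new than in preexisting RNA. Its summed value was 18.6 in labeled and 40.7 in unlabeled RNA, a ratio of 0.456. All 5 transcripts in the table were lower in labeled RNA, with ratios from 0.211 to 0.893. The most abundant, H19-201, had 3.07 and 14.6. Of its 5 intron rows, 3 were listed at 0 in both libraries. Igf2, the growth factor gene that shares enhancers with H19 and is expressed from the other chromosome, had 11.1 and 37.4, a ratio of 0.296. Mrpl23, a mitochondrial ribosomal protein gene on the far side of H19, had 146.8 and 53.4, and Ins2 was listed at 0.

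Pvt1 (ENSMUSG00000097039, chr15:62037986-62378096, plus strand) was higher in labeled RNA over exons and introns alike. Its summed exon value was 269.8 in labeled and 82.8 in unlabeled RNA, a ratio of 3.26. All 10 transcripts and all 10 intron rows were higher in labeled RNA, with exon ratios from 1.93 to 14.7 (median 3.28) and intron ratios from 1.82 to 4.19 (median 3.44). Over all transcripts the medians were 0.905 for exon rows and 3.98 for intron rows, so the Pvt1 intron median lay below the common one. The most abundant transcript, Pvt1-203, had 43.4 and 15.3, and Pvt1-206 had 43.6 and 12.4. Pvt1-201, Pvt1-207, Pvt1-208 and Pvt1-210 lay from 33.8 to 40.01 in labeled and from 10.4 to 11.4 in unlabeled RNA, and Pvt1-209 had 15.2 and 7.86. Because the gene spans 340.1 kb, introns held 98.9% of the length-weighted RNA in the labeled and 98.5% in the unlabeled library. Its neighbour Myc, a transcription factor of growth, went the other way with 190.6 and 650.9, a ratio of 0.293.

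**Figure D4:**
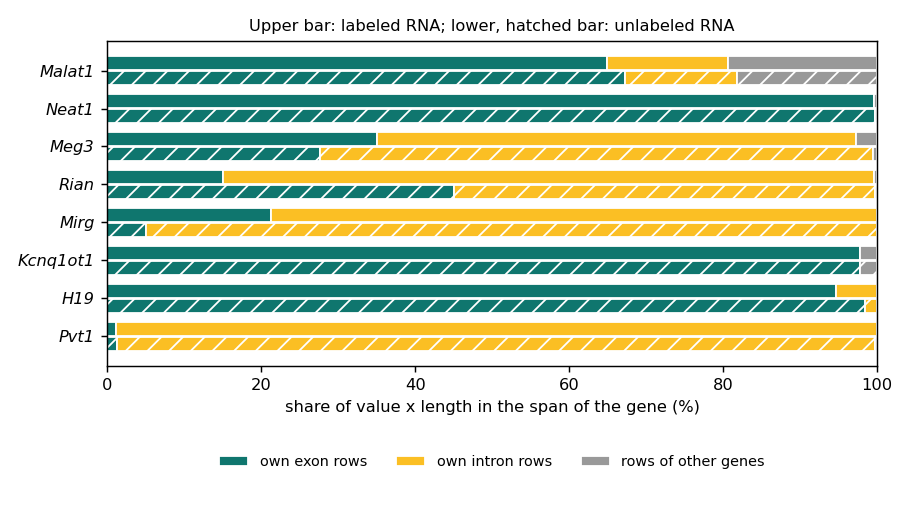
Share of value times length (%) within the span of each gene that falls to its own exon rows, its own intron rows and rows of other genes, in labeled (upper) and unlabeled (lower, hatched) RNA. Own exons hold 15.1% of Rian in labeled and 45.1% in unlabeled RNA, and 21.2% and 5.03% of Mirg.

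The intron to exon ratio of a transcript is the quantity from which the study's model derives rates. In that model, premature RNA is processed and mature RNA decays, each at a constant rate, so the labeled ratio of a transcript must be under 1 and above its unlabeled ratio. A transcript that meets this is called compatible here, and it need not have an exact solution. Of the 58 member transcripts with an intron row, 44 had exon and intron values above 0 in both libraries and a mean exon value over 1. These had a median ratio of 0.719 in labeled and 0.403 in unlabeled RNA, against 0.604 and 0.132 over all 54122 transcripts. Their intron ratio exceeded their exon ratio of labeled to unlabeled RNA in 24 of 44 cases, and the background was 89.3%. The labeled ratio was 1 or more in 12 of 44, near the background of 30.9%. It was under 1 but not above the unlabeled ratio in 15, and 17 of 44 were compatible with the model, where 62.3% of all transcripts were. At a mean exon value above 10, 15 of 25 were compatible beside 77.9% of all transcripts.

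The genes split by region. Rian had 11 compatible transcripts of 16 and 5 with a labeled ratio of 1 or more. None of the 8 Meg3 and 6 Mirg transcripts was compatible. All 8 of Meg3 lay below the diagonal, with median ratios of 0.257 in labeled and 0.499 in unlabeled RNA, and the Mirg medians were 1.00 and 7.21. The unlabeled ratios of the 6 Mirg transcripts divide by unlabeled exon values of only 0.21 to 0.58, so their place is uncertain. Pvt1 lay along the diagonal with medians of 0.807 and 0.780, and 3 of its 10 transcripts were compatible. Of 3 Malat1 transcripts 2 were compatible, Malat1-202 (0.353 labeled, 0.290 unlabeled) and Malat1-204 (0.624 and 0.269), while Malat1-203 had 6.25 and 6.97. Neat1 and Kcnq1ot1 had no transcript with all 4 values. Of the 58 transcripts with an intron row, 53 have intron bases that are exonic in another transcript of the gene, and in 23 this holds for over 50% of the intron bases. Among all 54122 transcripts with ratios, it held for over 50% of the intron bases in 2655 and for none in 10033. Without those 23, 29 of the 44 member transcripts with ratios remained. Of these 29, 6 were compatible, beside 62.4% of all transcripts under the same restriction, which was added after the data were seen.

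**Figure D5:**
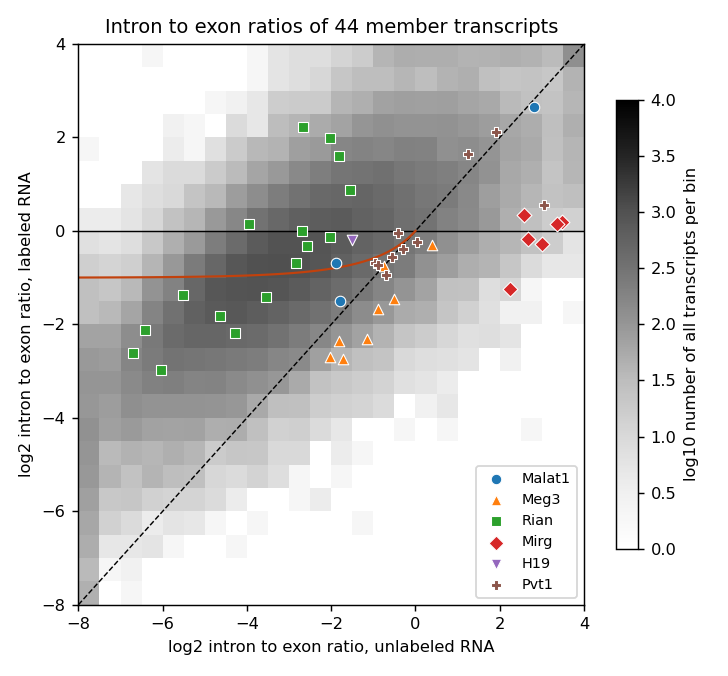
Log2 intron to exon ratio in unlabeled (x) and labeled (y) RNA of 44 member transcripts (symbols by gene) over the number of all transcripts per bin (grey, log10 scale, values beyond the axes placed in the edge bins). The dashed diagonal, the line of a labeled ratio of 1 and the orange limit above which the model has a single solution divide the plane, and Meg3 and Mirg lie to the right of the diagonal while Rian lies to the left.

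Degradation half-lives were computed for the 15 compatible member transcripts with a mean exon value of at least 10. They were 2 of Malat1, 10 overlapping ones of Rian and 3 of Pvt1, so the other member genes are not covered. Their median was 16.4 min, beside 18.8 min in a sample of 2000 compatible transcripts of all genes. This median is the value of Malat1-202, for which the model had no solution. The model had 1 solution in 6 of the 15, 2 in 1 and none in 8, for which the nearest point was taken. In the sample of 2000 transcripts it had 1 solution in 607, 2 in 167 and none in 1226, so a missing solution was common. With 1 solution, the half-life was 4.45 min for Malat1-204, 12.4 min for Rian-214, 46.0 min for Rian-205, 100.9 min for Rian-203, 27.2 min for Pvt1-201 and 2229 min for Rian-215. The last has a labeled ratio of 0.992, at the edge of the region. Transcripts of Rian ranged from 8.64 to 2229 min although they share exons and introns. The lowest is Rian-207, which has 2 solutions, and it became 2.08 min with the other one and 146 min after subtraction of leakage, unlabeled RNA carried into the labeled pool. That subtraction left 11 of the 15 with a half-life and moved 6 of them by over 1.5-fold. The values of Malat1 rest on introns that Malat1-201 holds as exon. The same limit holds for most of those of Rian. In Rian-202, Rian-204, Rian-207, Rian-208, Rian-211, Rian-213 and Rian-214, 59.8% to 100% of intron bases are exonic in another transcript of the gene. In Rian-203, Rian-205 and Rian-215 the share was 20.1% to 29.9%. If the second library is taken as total RNA at steady state, the median becomes 38.2 min.

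Uridine content, which sets how many sites 4sU can take, varied among these RNAs. The median over transcripts that passed the mean exon minimum was 24% of exon bases, with quartiles of 21.4% and 26.9%. Malat1-201 had 28.9%, Neat1-201 30.0% and Kcnq1ot1-201 26.4%. Over the transcripts of a gene it ran from 20.3% to 26.1% in Meg3, from 24% to 32.8% in Rian, from 21.9% to 27.1% in Mirg, from 17.1% to 27.9% in H19 and from 21.4% to 30.0% in Pvt1. The part of uridine content in the ratios was not tested.

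Other long noncoding RNAs of these cells were read in the same way. Of 12 listed, 10 passed the filter, with a median ratio of 1.05. In labeled RNA, 3 were at least 2 times higher and 2 at least 2 times lower, near the 28.9% and 17.5% of all genes. Among lincRNA genes the shares were 59.9% and 9.76%. Xist, the RNA of X inactivation, had 115.1 in labeled and 15.5 in unlabeled RNA, and its antisense partner Tsix had 37.1 and 15.6. They overlap on opposite strands, so without known strand their reads cannot be told apart. Tug1 had 762.5 and 1905, and Norad, a cytoplasmic RNA that binds Pumilio proteins, had 37.2 and 131.1, ratios of 0.40 and 0.284. Lncenc1, a long noncoding RNA of naive stem cells, had 836.8 and 962.6, the highest labeled value of the list.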

How the data were processed

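The 4sU-labeled pool and the unlabeled pool of mouse stem cells were each measured in 1 library. Reads outside ribosomal RNA were aligned by the authors with STAR (version 2.5.0 in the submitters' processing notes) and quantified with RSEM against exons and introns on mm10 (GRCm38). The deposited values, named TPM by the authors but adding up to 10 times what TPM would, were used as they stand; no read counts were used. The second library, which one label names total and another preexisting, was used as the unlabeled pool.

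Transcripts were assigned to genes by GENCODE M21. Of 121429 exon rows, 11063 had no match and were left out of gene values. Norad and Oip5os1 were matched through RefSeq synonyms. Genes and transcripts were kept at a mean exon value above 1 with values above 0. The 8 members and the gene lists were chosen with earlier results of these data known. Named transcripts were the most abundant of each gene and all with a mean exon value of at least 10; Neat1-203 and Rian-218 were named beyond this rule, after their values were seen. Half-lives followed the study's equations, solved on 4000 grid points; the solver was tested on simulated data. With 2 solutions the one nearest the median rates of transcripts with 1 solution was taken. Overlapping transcripts share reads, so the split of a gene among them is uncertain. Values were computed in Python 3.11.15 with scipy 1.17.1, pandas 2.3.3 and numpy 2.4.6, and plots drawn with matplotlib 3.10.9.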

Additional observations from a re-analysis of the deposited data

How the results depend on the processing

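No paired analysis was possible because each pool has 1 library. The count of 4 genes at least 2 times higher in labeled RNA and the median log2 ratio of 1.095 were recomputed under other settings. Both moved by less than 1.5-fold with a pseudocount of 1, the most abundant transcript and rescaling over exon rows. The same held for centring on all genes and subtraction of leakage (0.136 times the unlabeled value). Using no filter or a mean exon value above 10 could not change them, because the lowest mean of a member gene was 27.1 (Mirg). Single genes moved more with the most abundant transcript. The log2 ratio then went from 3.34 to 1.185 for Mirg and from -1.13 to -2.25 for H19. Over all bases of the span of each gene, chosen after seeing the data, 2 genes, Neat1 and Pvt1, were at least 2 times higher. The log2 ratio of Rian turned from -1.19 to 0.72. Intron rows then count as well, and their median ratio over all transcripts was 3.98. No share over all genes is given for this measure, so its count cannot be read against the 28.9% for exon values. The count of labeled ratios at or above 1 fell from 12 to 4 at a mean exon value above 10, with 25 in place of 44 transcripts. Compatible were then 15 of 25, and 25 of 56 with a pseudocount of 0.1, 12 of 43 after subtraction of leakage, and 6 of 29 without those over 50% of whose intron bases are exonic elsewhere, in place of 17 of 44; over all transcripts the shares were 77.9%, 59.7%, 55.9% and 62.4%. Subtraction of leakage raised the labeled ratios of 1 or more from 12 to 16. The median half-life of 16.4 min became 5.08 min with the distance minimised over both variables and 38.2 min when the second library was taken as total RNA; the cause was not tested. By transcript it moved by over 1.5-fold in 8 and in 10 of 15 under these choices. Without read counts or replicates, low rows such as those of Mirg and H19 carry an error that cannot be given.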

Other observations

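The Dlk1-Dio3 domain also held a noncoding model that lies within Rian but outside its exons. Gm26945, a lincRNA model of 2011 bases on the same strand, had 4.73 in labeled and 1.95 in unlabeled RNA, a ratio of 2.43, in the direction of the Rian introns around it.
In Pvt1, the pseudogene H2afy3 on the other strand had 6.42 and 24.2, a ratio of 0.265, against the direction of all 10 Pvt1 intron rows.
Of the short models inside these genes that are neither microRNA nor small nucleolar RNA, Gm28006 in Neat1 had 15.6 in labeled RNA and Gm27913 in Pvt1 had 14.9, and both were listed at 0 in unlabeled RNA, while Gm27782 in Pvt1 was listed at 0 in labeled and had 3.77 in unlabeled RNA.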
